A study of Mus musculus with 47 samples.

Results

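The proteasome genes described here were the protein-coding genes of the deposited mouse retina table whose symbols start with Psma, Psmb, Psmc, Psmd, Psme, Psmf or Psmg and a digit, leaving out Psmb8 and Psmb9, the inducible catalytic subunits. Of 57180 genes in the table, 48 carried such a symbol, and 46 were kept because they reached 0.5 RPKM (reads per kilobase of exon and per M, mega, reads of the library) in at least 12 of the 47 libraries. All 46 were at or above 0.5 RPKM in all 47 libraries. The lowest of them was Psmg3, an assembly chaperone, at a mean of 1.99 RPKM. Just outside the rule were Psma8, the testis form of an alpha subunit, and Psmb11, the thymus form of a catalytic subunit, which did not exceed 0.0578 and 0.0227 RPKM in any library. The 46 genes comprised 7 subunits of the alpha ring (Psma1 to Psma7), 7 subunits of the beta ring (Psmb1 to Psmb7), the 6 ATPases of the regulatory particle (Psmc1 to Psmc6), 11 of its other subunits, 5 activator genes, the inhibitor Psmf1 and 7 assembly chaperones. They also held Psmb10, an alternative catalytic subunit, and Psmc3ip, which encodes a protein of meiotic recombination and no proteasome subunit. The word constitutive therefore covers most of the set but not Psmb10, Psme1 and Psme2, which are known as interferon-inducible, nor Psmc3ip.

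The proteasome is the protease that degrades most ubiquitin-tagged proteins of the cytosol and nucleus. Its core, the 20S particle, is a barrel of stacked alpha and beta rings, and the alpha rings gate the entrance to the chamber where the catalytic beta subunits face inward. The 19S particle caps the barrel, binds ubiquitin chains, removes them, and unfolds the substrate with a ring of ATPases. Photoreceptors renew their outer segments every day and depend on this system to clear misfolded proteins, and the transcription factors Nfe2l1 and Nfe2l2 are known to raise proteasome genes through antioxidant response elements (ARE) in their promoters.

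Promoter sequences, from 250 bases before to 50 after an annotated transcript start, were found in RefSeq (build GRCm38.p6) for 39 of the 46 genes by symbol. They are shown for Psma6, the member called for age in all libraries, which has a pair of annotated starts, and for the catalytic subunits Psmb5 and Psmb6, whose promoters hold the ARE core within 47 bases of the start. Each is written in its own strand, 5′ to 3′, with capitals marking CCAAT, the element bound by NF-Y, or its reverse complement ATTGG in Psma6, and the ARE core TGACNNNGC in Psmb5 and Psmb6.
Psma6 promoter, chr12:55383972-55384271, plus strand: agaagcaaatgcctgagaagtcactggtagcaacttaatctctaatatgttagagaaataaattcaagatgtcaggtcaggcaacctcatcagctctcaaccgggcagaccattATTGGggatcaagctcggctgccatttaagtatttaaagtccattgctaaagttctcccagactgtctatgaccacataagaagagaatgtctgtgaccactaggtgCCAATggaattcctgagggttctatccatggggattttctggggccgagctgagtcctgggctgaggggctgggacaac
Psma6 promoter, chr12:55398575-55398874, plus strand: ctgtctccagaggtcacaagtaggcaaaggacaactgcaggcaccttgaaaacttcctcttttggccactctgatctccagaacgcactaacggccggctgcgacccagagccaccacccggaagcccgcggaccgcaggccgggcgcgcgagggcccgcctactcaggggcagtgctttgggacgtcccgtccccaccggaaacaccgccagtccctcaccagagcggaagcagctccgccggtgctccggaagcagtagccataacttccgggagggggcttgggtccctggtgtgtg
Psmb5 promoter, chr14:54617946-54618245, minus strand: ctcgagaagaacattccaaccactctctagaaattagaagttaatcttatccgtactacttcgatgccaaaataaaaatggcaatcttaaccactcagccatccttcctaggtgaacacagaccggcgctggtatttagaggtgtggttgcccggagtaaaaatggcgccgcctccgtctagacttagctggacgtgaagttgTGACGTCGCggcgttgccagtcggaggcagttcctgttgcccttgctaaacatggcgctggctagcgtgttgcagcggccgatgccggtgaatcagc
Psmb6 promoter, chr11:70525107-70525406, plus strand: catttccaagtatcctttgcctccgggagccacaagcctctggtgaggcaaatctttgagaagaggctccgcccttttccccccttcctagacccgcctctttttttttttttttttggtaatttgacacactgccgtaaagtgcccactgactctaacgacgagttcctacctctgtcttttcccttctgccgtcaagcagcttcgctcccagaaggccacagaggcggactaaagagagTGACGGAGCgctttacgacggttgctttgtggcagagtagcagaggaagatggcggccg

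On either strand, the ARE core TGACNNNGC was present in 6 of the 39 genes with a promoter (15.4%) and in 14% of 27025 symbols with such a window. The 6 genes were Psmb5, Psmb6, the ATPase Psmc6, the regulatory subunit Psmd12, the chaperone Psmd9 and the activator Psme4. In Psmb5 the element begins 47 bases before the start, and in Psmb6 it begins 9 bases before. CCAAT was present in 13 of the 39 (33.3%) and in 41.1% of all symbols. In the upstream Psma6 promoter it begins 29 bases before the start on the plus strand and 136 bases before on the minus strand, while the downstream promoter holds neither motif.

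Messenger RNA was sequenced from whole retinas, the light-sensing tissue at the back of the eye, of C57BL/6 mice, an inbred laboratory strain, and the labels name no other allele or agent. Young mice were 6 weeks and aged mice 20 months old, all lived under 12 h of light and 12 h of dark, and the right eye was taken from each of 4 mice per age at each of 6 zeitgeber times (ZT, in h after lights on). ZT2, ZT6 and ZT10 lie in the light, ZT14, ZT18 and ZT22 in the dark, and aged ZT18 has 3 libraries here, for 24 young and 23 aged libraries in all. The questions were which transcripts differ with age, which cycle over the day, and whether the cycles differ between ages.

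Library totals lay between 32.0 and 55.5 M reads. Rod markers summed to between 13433 and 22899 RPKM in every library, rods being the most numerous cells of the mouse retina. A pair of libraries stood apart, young ZT10 replicate 4 and aged ZT6 replicate 3. Their genes lay far from the median of the other libraries, with interquartile ranges of 1.24 and 0.999 in log2 against at most 0.459 elsewhere. Müller glia markers summed to 73.1 RPKM in young ZT10 replicate 4 and to at least 598 RPKM in the other young libraries. Microglia markers summed to 7.05 RPKM in aged ZT6 replicate 3 and to at least 16.3 RPKM in the other aged libraries. The cause was not tested, and results are given with all 47 libraries and without both. In whole tissue, fewer cells of a type and less RNA per cell cannot be told apart.

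Levels of the 46 genes spanned 47.8-fold, from Psmg3 at 1.99 RPKM to Psmc5, an ATPase of the regulatory particle, at 95.0 RPKM (means over 47 libraries). Subunits of one ring were not at equal levels. In the alpha ring, means ran from 21.1 RPKM for Psma1 to 52.9 RPKM for Psma6, a 2.5-fold span. In the beta ring they ran from 17.6 RPKM for Psmb7, the trypsin-like catalytic subunit, to 80.7 RPKM for Psmb4, a structural subunit, a 4.58-fold span. The other catalytic subunits, the chymotrypsin-like Psmb5 and the caspase-like Psmb6, were at 59.9 and 61.9 RPKM. The levels of the alternative catalytic subunit Psmb10 were lower, at 5.77 ± 0.961 RPKM in young (SD, n = 24) and 6.23 ± 1.38 RPKM in aged (SD, n = 23), below every library's value of its constitutive counterpart Psmb7, whose lowest was 13.6 RPKM.

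Among the ATPases, which unfold substrates and thread them into the core, Psmc2 was lowest at 17.5 RPKM and Psmc5 highest. The other subunits of the regulatory particle ran from 7.57 RPKM for Psmd11 to 52.9 RPKM for the scaffold Psmd2, with the deubiquitinating enzyme Psmd14 at 18.9 RPKM and the ubiquitin receptor Psmd4 at 45.2 RPKM. Of the activators, which cap the core in place of the regulatory particle, the nuclear activator Psme3 led at 33.7 RPKM. Psme1 and Psme2, which form the interferon-inducible activator, were at 10 and 8.20 RPKM, the large activator Psme4 at 5.77 RPKM and Psme2b, a near-copy of Psme2, at 3.83 RPKM. The inhibitor Psmf1 was at 5.78 RPKM, the assembly chaperones ran from Psmg3 to Psmg4 at 19.2 RPKM, and Psmc3ip was at 3.51 RPKM. The plot of levels by role shows all 14 constitutive core subunits and all 6 ATPases above the 7 chaperones but for Psmg4.

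**Figure D1:**
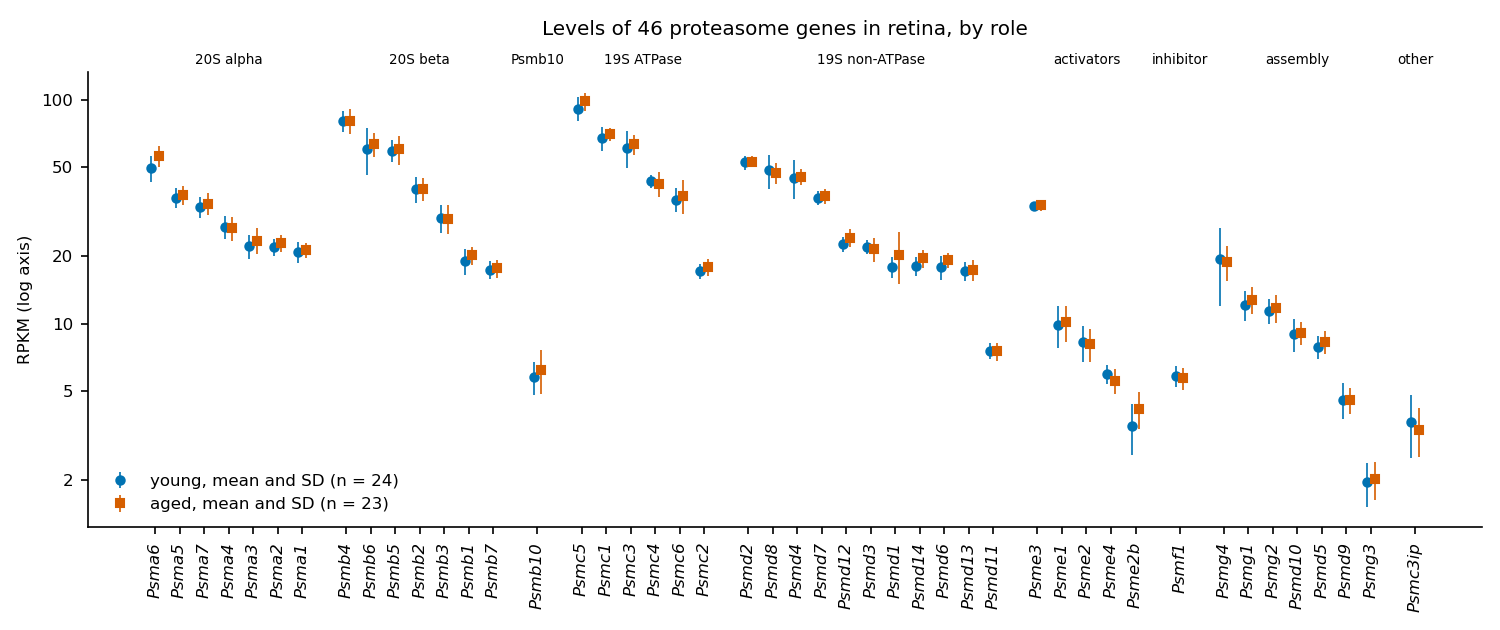
Mean level in RPKM (log axis) of each of the 46 genes, grouped by role, in young (circles, n = 24) and aged (squares, n = 23) libraries, with bars for 1 SD. The span runs from Psmg3 at 1.99 RPKM to Psmc5 at 95.0 RPKM, and the bars of the ages overlap for all genes.

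Some of these levels are uncertain because reads could fall on near-identical sequence. In GENCODE M21 transcripts, 59.3% of the 50-base stretches of Psme2 and 69.3% of those of Psme2b also occur in another gene, chiefly each other. The other shares over 10% were 57.1% for Psmb5, 54.5% for Psma5, 26.1% for Psmd2, 25.6% for Psma4, 22% for Psma3, 17.6% for Psmc1 and 10.1% for Psmb3, with pseudogenes as the leading partners. Stretches on the opposite strand of another gene made up 27.1% of Psmc3ip, 15.1% of Psmd13 and 6.84% of Psmc3, and whether strand was used in counting is not given in the sources used here. Psma6 and Psmc5, which the age results turn on, were among the members that shared no such stretch.

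Few of these transcripts differed with age. Psma6, an alpha ring subunit, rose in aged retinas and was the 1 member of 46 called over all 47 libraries, where 4.24% of the 15321 tested genes were called (2.41% higher and 1.83% lower in aged). Its lowest, median and highest levels were 41.1, 49.4 and 62.6 RPKM in young and 45.9, 57.5 and 66.0 RPKM in aged libraries. The ages overlapped, with the aged median above all young libraries but 2. The log2 difference was 0.19 ± 0.041 (SE), which is 13.7% on the log2(RPKM + 0.5) scale, with an adjusted p of 0.00310 (limma, Benjamini-Hochberg over all tested genes). The difference was positive at each of the 6 times. Without both libraries that stand apart the difference was 0.20 ± 0.037, with an adjusted p of 0.000179. No member differed by over 1.5-fold and passed the test, a combination met by 0.49% of tested genes.

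The other members did not pass the test. Of the 46, 33 had a positive and 13 a negative difference, with a median of 0.032 in log2, and over all tested genes 41.6% were positive and the median was -0.019. The next by p-value were Psme2b at 0.24 ± 0.079 (adjusted p = 0.0886), Psmd14 at 0.11 ± 0.036 (adjusted p = 0.0937) and the regulatory subunit Psmd6 at 0.10 ± 0.036 (adjusted p = 0.105), all from limma. At an unadjusted p under 0.05 there were 8 members, 17.4%, against 15.7% of tested genes. Psmb5 was at 59.5 ± 6.63 RPKM in young and 60.3 ± 8.84 RPKM in aged, Psmb6 at 60.6 ± 14.3 and 63.4 ± 7.76 RPKM, and Psmb7 at 17.5 ± 1.68 and 17.7 ± 1.63 RPKM (SD, n = 24 and 23). The ages overlapped for all 3 catalytic subunits. Their log2 differences were 0.013 ± 0.060, 0.084 ± 0.068 and 0.018 ± 0.040 (SE), against adjusted p-values of 0.957, 0.636 and 0.904 from limma. The differences of the inducible members were 0.081 ± 0.083 for Psmb10, 0.066 ± 0.091 for Psme1 and -0.034 ± 0.074 for Psme2.

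With both libraries that stand apart left out, 12 members were called, 26.1% of 46, where 16.5% of all tested genes were called (7.24% higher and 9.29% lower in aged). Of these, 11 rose and 1 fell, and 41 of the 46 differences were positive, against 40.2% of all tested genes. Among the ATPases, 4 of the 6 rose: Psmc5 (0.16 ± 0.025, adjusted p = 7.85e-06 by limma), Psmc1 (0.10 ± 0.024), Psmc3 (0.11 ± 0.031) and Psmc2 (0.075 ± 0.026). In the core, Psma6, the caspase-like Psmb6 (0.16 ± 0.040) and the structural subunit Psmb1 (0.11 ± 0.037) rose. In the regulatory particle, the ubiquitin receptor Psmd4 (0.084 ± 0.027), the scaffold Psmd1 (0.072 ± 0.021) and Psmd6 (0.085 ± 0.030) rose. Psme2b, whose reads can be shared with Psme2, rose by 0.29 ± 0.070, and the large activator Psme4 fell by 0.12 ± 0.038, all in log2 ± SE. Mean log2 levels of the tested markers of the retinal pigment epithelium (RPE) and of the lens were also used as covariates. With these in addition, 8 of the 12 were called, and Psmb1, Psmc2, Psmd4 and Psmd6 were not. The share of all tested genes in that fit is not given here, so the 8 cannot be set against all genes. The inhibitor Psmf1, the 7 chaperones and Psmc3ip held no called member in either fit.

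The libraries that stand apart moved several of these values. Psmc5, whose product is an ATPase, had its lowest, median and highest levels at 75.5, 91.3 and 135 RPKM in young and 71.9, 98.1 and 115 RPKM in aged, and the highest young and the lowest aged values were those of the libraries that stand apart. With all libraries its difference was 0.11 ± 0.043 (adjusted p = 0.152 by limma). In young ZT10 the caspase-like Psmb6 was at 56.6, 53.7, 48.4 and 122 RPKM in replicates 1 to 4, so that replicate 4 lay above all other libraries. The scaffold Psmd1 went the other way there, at 19.6, 18.8, 18.1 and 9.25 RPKM, and in aged ZT6 it was at 21.2, 21.7, 43.9 and 19.4 RPKM, with replicate 3 highest. Its difference was 0.16 ± 0.064 with all libraries and 0.072 ± 0.021 without both. Leaving out young ZT10 replicate 4 alone gave 7 called members, aged ZT6 replicate 3 alone 3, and young ZT22 replicate 4 alone 2. Shares of all tested genes in these fits are not given here. Median-ratio scaling, which sets the typical gene equal across libraries, gave 3 with all libraries (Psma6, Psmd14 and Psmd6, where 4.13% of tested genes were called) and quantile normalization 4 (the same 3 and Psmc5, 4.85%). With the RPE and lens covariates (2.85%), and with limma voom on recovered reads (4.02%), Psma6 was the 1 member called. RPE markers summed to between 5.66 and 98.2 RPKM in young and between 7.38 and 184.5 RPKM in aged, with 1 of 6 tested genes higher in aged and Best1 and Mlana under 0.5 RPKM on average. Blood markers summed to between 14.1 and 293.9 RPKM in young and between 12.2 and 822.9 RPKM in aged, with 1 of 5 higher. In the fit without both libraries that stand apart, 3 of 6 RPE and 4 of 5 blood markers were higher and 4 of 6 bipolar markers lower in aged. The part of blood and bipolar markers in the age results was not tested. With the RPE and lens covariates the Psma6 difference was 0.17 (adjusted p = 0.0239 by limma). Psma6 was called in each of the 47 fits that left out 1 library.

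**Figure D2:**
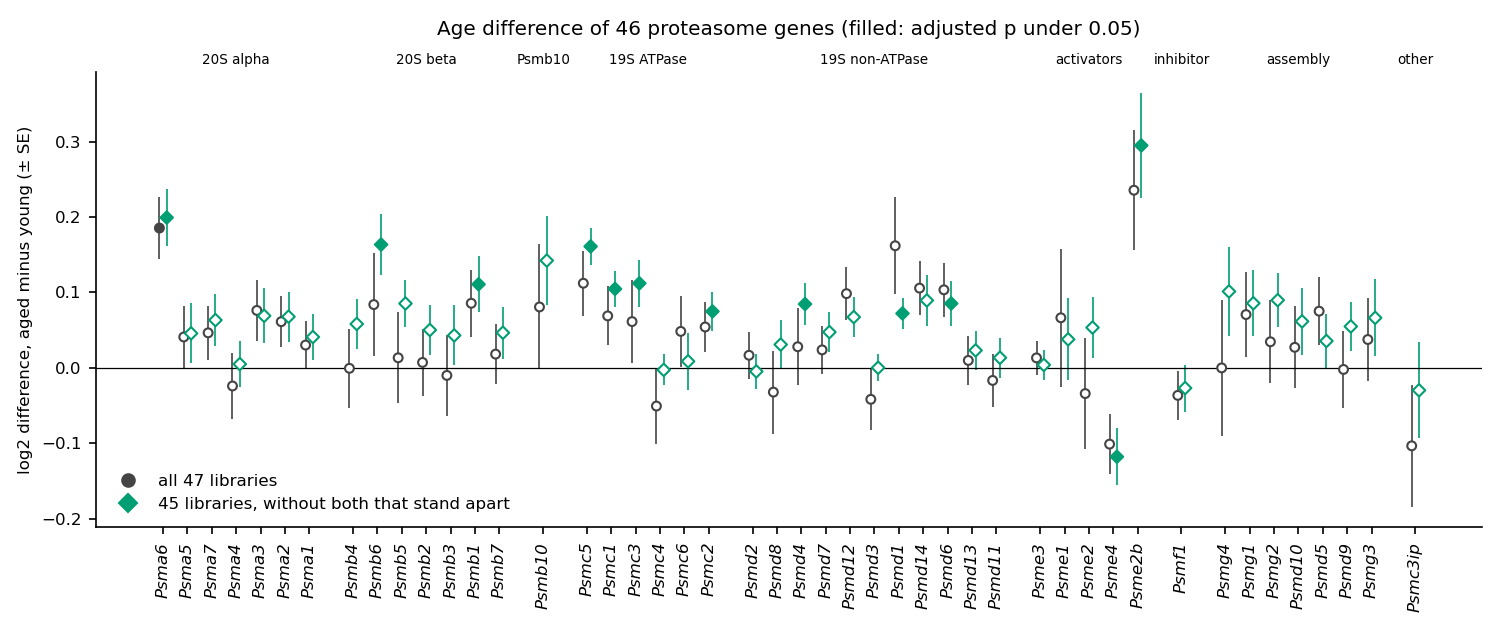
Log2 difference (aged minus young, from limma on log2(RPKM + 0.5)) of each of the 46 genes, grouped by role, with bars for 1 SE, over all 47 libraries (circles) and over 45 libraries (diamonds). Filled symbols passed an adjusted p under 0.05: Psma6 alone among the circles, and 12 genes among the diamonds, of which Psme4 lies below 0.

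At single times no member passed the test with all libraries, where the share of tested genes called was 0.144% for ZT2, 3.12% for ZT6, 0.496% for ZT10, 0.248% for ZT14, 0.255% for ZT18 and 0.17% for ZT22. At an unadjusted p under 0.05 limma gave 1, 9, 4, 10, 3 and 1 of the 46 members in that order, against 4.47, 19.8, 12.6, 5.46, 3.58 and 4.13% of all tested genes, so that the 9 at ZT6 lay at the share of all genes. Limma voom on recovered reads also called 0 at every time. Positive differences numbered 28, 14, 19, 43, 39 and 34 of 46 over the same times. With the libraries that stand apart left out they numbered 25 at ZT6 and 33 at ZT10, and the medians there went from -0.066 to 0.019 and from -0.019 to 0.039 in log2. Over all tested genes the medians went from -0.098 to -0.036 at ZT6 and from 0.084 to -0.012 at ZT10. At ZT14, the first time point in the dark, 43 of the 46 members were higher in aged, with a median log2 difference of 0.13 against 0.0033 over all tested genes. Median marker sums at ZT14 also differed between young and aged, at 22.7 and 96.3 RPKM for RPE, 48.1 and 302.7 RPKM for blood and 14.9 and 26.5 RPKM for microglia, and their part in the ZT14 values was not tested. Psma6 at ZT14 was at 41.8, 41.1, 41.5 and 42.2 RPKM in young and at 50.8, 48.3, 60.5 and 52.5 RPKM in aged. All 4 aged values lay above all 4 young values, and the log2 difference was 0.34 ± 0.10 (adjusted p = 0.228 by limma). The chaperone Psmg1 at ZT14 was at 10.7, 12.9, 12.5 and 10.2 RPKM in young and 14.8, 14.3, 15.7 and 15.9 RPKM in aged, again without overlap. Its difference was 0.38 ± 0.13, with an adjusted p of 0.372 with all libraries and 0.0340 without both that stand apart (limma), where 0.914% of tested genes were called at ZT14. Psma7, another alpha subunit, had the third smallest p at ZT14, with a difference of 0.24 ± 0.083 (adjusted p = 0.461 by limma).

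At ZT14, 9 members (19.6%) had all aged libraries above all young ones, Psma1, Psma2, Psma6, Psma7, Psmb1, Psmb3, Psmb6, Psmd4 and Psmg1, where 4.95% of tested genes did. All but Psmd4 and Psmg1 are core subunits. At ZT18 there were 5, Psmc2, Psmd4, Psmd6, Psmd10 and Psmd12, against 5.39% of tested genes. ZT10 had 3 (Psmd1, Psmd14 and Psme3, against 2.64%), ZT22 had 2 (Psme2b and Psmg2, against 2.68%) and ZT6 had 1 (Psmd2, against 1.64%). The opposite order was seen for Psmd11 at ZT2 (3.26% of tested genes) and Psmd2 at ZT22 (3.56%). No member had all aged libraries above all young at ZT2 (2.25% of tested genes), nor below them at ZT6 (6.09%), ZT10 (1.67%), ZT14 (1.7%) or ZT18 (3.43%). The members with the 3 smallest p-values at each of the other times are given as log2 differences ± SE, and none passed after adjustment in limma. At ZT2 they were Psmd11 (-0.18 ± 0.081), Psmd6 (0.15 ± 0.087) and Psmc1 (0.16 ± 0.10), with adjusted p-values of at least 0.985. At ZT6 they were Psma4 (-0.28 ± 0.10), Psmd1 (0.40 ± 0.15) and Psme2 (-0.45 ± 0.17), with adjusted p-values of at least 0.112. At ZT10 they were Psmd2 (0.18 ± 0.069), Psme1 (0.53 ± 0.21) and Psmd1 (0.35 ± 0.15), with adjusted p-values of at least 0.322. At ZT18 they were Psmd6 (0.24 ± 0.094), Psma6 (0.25 ± 0.11) and Psmd14 (0.19 ± 0.092), with adjusted p-values of at least 0.966. At ZT22 they were Psme2b (0.45 ± 0.18), Psme4 (-0.19 ± 0.10) and Psma6 (0.18 ± 0.10), with adjusted p-values of at least 0.926. All 3 at ZT10 were positive, and 2 of the 3 at ZT6 were negative. Without both libraries that stand apart the ZT6 values were -0.11 ± 0.074 for Psma4, 0.13 ± 0.051 for Psmd1 and -0.12 ± 0.10 for Psme2. The ZT10 values were then 0.076 ± 0.053 for Psmd2, 0.16 ± 0.14 for Psme1 and 0.10 ± 0.051 for Psmd1. At ZT6, leaving out aged replicate 4 gave 3 called members, aged replicate 2 gave 2 and young ZT10 replicate 4 gave 1. Shares of all tested genes in these fits are not given here, so these counts cannot be set against all genes. The test of an age by time interaction called no member and no gene (0% of those tested). At an unadjusted p under 0.05 limma gave 2 members, Psmd2 and Psmb3, which is 4.35% of 46 against 4.8% of tested genes.

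**Figure D3:**
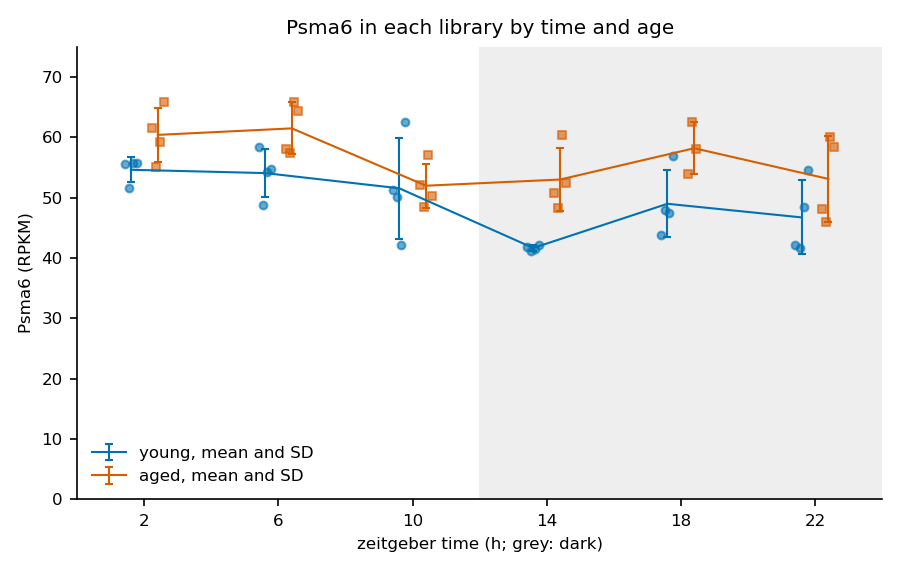
Psma6 level in RPKM in each library (points) against zeitgeber time in h, for young (blue circles) and aged (orange squares) retinas, with lines and bars for the mean and 1 SD and grey for the dark. At ZT14 the young values sit between 41.1 and 42.2 RPKM and the aged between 48.3 and 60.5 RPKM.

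Over the day, core subunit transcripts of young retinas were highest on average at ZT6, in the middle of the light. The mean log2 level of the 14 constitutive core genes in young was 5.07 ± 0.020, 5.19 ± 0.041 and 5.15 ± 0.16 over the light times ZT2, ZT6 and ZT10, and 4.99 ± 0.084, 5.05 ± 0.069 and 4.93 ± 0.16 over the dark times (SD, n = 4 each). In aged it was 5.13 ± 0.091, 5.11 ± 0.19 and 5.07 ± 0.080 over the light times ZT2, ZT6 and ZT10. Over the dark times ZT14, ZT18 and ZT22 it was 5.19 ± 0.077, 5.16 ± 0.075 and 5.01 ± 0.15 (SD, n = 3 at ZT18 and 4 elsewhere). The young ZT10 and aged ZT6 values were 5.07 ± 0.045 and 5.19 ± 0.12 (SD, n = 3) without the libraries that stand apart. The 17 genes of the regulatory particle moved less, from 4.90 ± 0.085 at ZT22 to 4.99 ± 0.046 at ZT6 in young. At ZT14 the aged core mean was above the young one by more than either SD, and no library of one age overlapped the other.

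**Figure D4:**
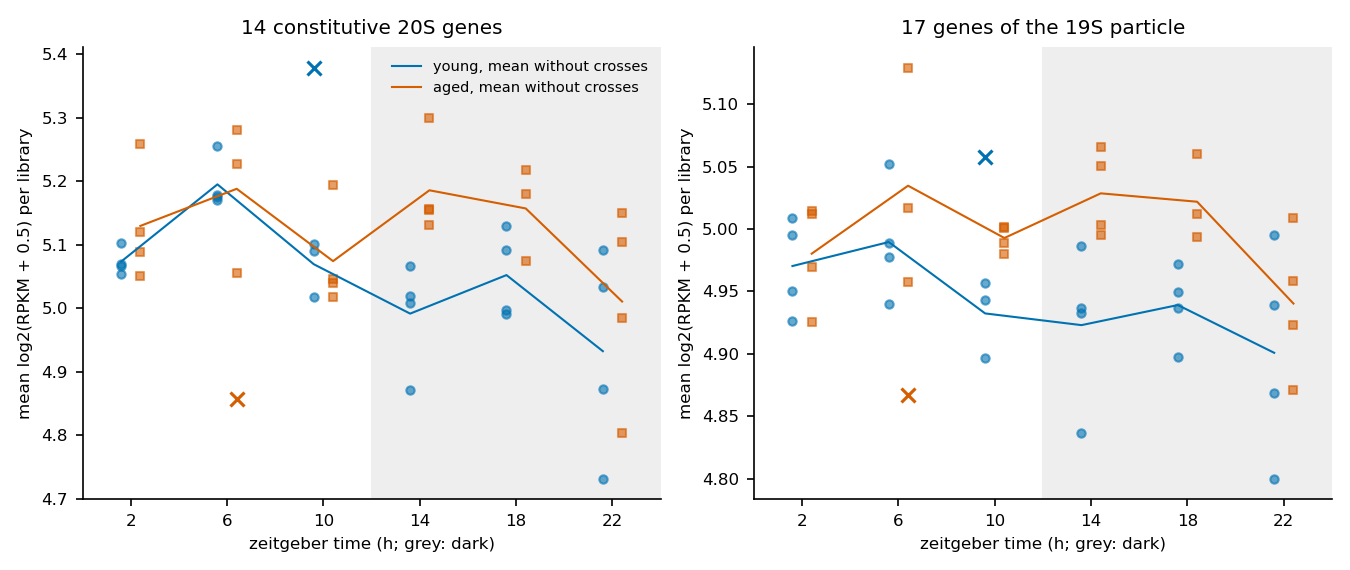
Mean log2(RPKM + 0.5) per library of the 14 constitutive core genes (left) and of 17 genes of the regulatory particle (right) against zeitgeber time, in young (blue circles) and aged (orange squares), with lines through the group means without the crosses. Crosses mark aged ZT6 replicate 3 and young ZT10 replicate 4 and lie below and above their groups in both panels.

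In a fit of a 24 h cosine wave, 14 of the 46 members (30.4%) were rhythmic in young, where 19.7% of all tested genes were. All 14 peaked in the light, between ZT4.12 and ZT9.60, as did 76.3% of the 3024 genes rhythmic in young. The alpha ring held 5 of its 7 subunits among them. Psma3 had an amplitude of 0.19 ± 0.032 (log2 ± SE) and a peak at ZT7.92 (adjusted p = 0.000556 by limma). Psma4 followed with 0.18 ± 0.030 at ZT7.11, Psma1 with 0.15 ± 0.034 at ZT5.23, Psma7 with 0.14 ± 0.037 at ZT8.89 and Psma6 with 0.15 ± 0.045 at ZT4.12. The alpha subunits thus spread over several hours of the light phase. The Psma6 call was marginal (adjusted p = 0.0476 by limma) and was lost in 17 of the 47 fits that left out 1 library. In the beta ring the structural subunits Psmb3 (0.21 ± 0.042 at ZT9.41) and Psmb2 (0.15 ± 0.042 at ZT8.24) were rhythmic, and no catalytic subunit was. The Psmb2 call was lost in 3 of those 47 fits.

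Of the regulatory particle, the ATPase Psmc2 (0.11 ± 0.025 at ZT4.79) and the subunits Psmd3 (0.12 ± 0.020 at ZT9.10) and Psmd13 (0.14 ± 0.028 at ZT8.46) were rhythmic in young. So were the inhibitor Psmf1 (0.15 ± 0.030 at ZT6.12), the activator Psme2 (0.22 ± 0.049 at ZT6.32) and the chaperone Psmg2 (0.18 ± 0.038 at ZT7.45). The largest amplitude was that of the chaperone Psmg4, 0.40 ± 0.090, a peak-to-trough fold of 1.75, with a peak at ZT9.60 (adjusted p = 0.00713 by limma). Psmg4 was at 23.7, 21.5, 16.5 and 49.9 RPKM in young ZT10 and at 15.3, 9.66, 12.3 and 17.7 RPKM in young ZT22, so replicate 4 at ZT10 stood far above the rest. Without both libraries that stand apart its amplitude was 0.31 ± 0.066 (adjusted p = 0.00305).

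The young count depended on the scaling. With median-ratio scaling 2 members were rhythmic in young (Psma4 and Psmd2), where 16% of tested genes were, and with quantile normalization 11 (16.9%). The median-ratio size factor, the log2 level of the typical gene in a library, was 0.12 ± 0.046 at young ZT6 and -0.05 ± 0.015 at young ZT18 (SD, n = 4). Between these times the mean log2 level of the members moved in the same direction, from 4.45 to 4.32. Other times did not all go together. At young ZT22 the member mean was lowest, at 4.24, while the size factor was 0.0077 ± 0.021. Psma4 was the 1 gene among the 14 still called, with an amplitude of 0.13 against 0.18 before. Psmg4 missed the threshold with an amplitude of 0.37 (adjusted p = 0.0566 by limma) against 0.40, and Psma6 with 0.11 (adjusted p = 0.450) against 0.15. RPE markers also moved with time, 5 of 6 tested being rhythmic in young, with median sums of 13.7 RPKM at ZT2 and 68.3 RPKM at ZT18. With RPE and lens markers as covariates 9 of the 14 were called in young, where 11.4% of tested genes were. Without both libraries that stand apart 18 members were rhythmic in young (39.1%), where 34% of tested genes were, and these included all 14. The 4 added were Psmc5, Psmc6, Psmd6 and Psmc3ip, and Psmc5 differed from the rest with a peak in the dark at ZT21.5. With both left out and median-ratio scaling 11 were called, where 27.6% of tested genes were, and 5 of them were among the 14. Limma voom on recovered reads gave 13 with all libraries (19.3%). An F test with time as a factor in place of the cosine gave 10, without Psma6, Psmb2, Psme2 and Psmg4. Leaving out 1 library at a time gave 13 to 18, the highest without young ZT10 replicate 4. Shares of all tested genes with time as a factor or with 1 library left out are not given here.

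In aged retinas 2 of 46 members (4.35%) were rhythmic, where 14.4% of tested genes were. They were Psmd13, a subunit of the regulatory particle, with an amplitude of 0.16 ± 0.033 and a peak at ZT11.6 (adjusted p = 0.00586 by limma), and the chaperone Psmg3 with 0.21 ± 0.054 at ZT7.02 (adjusted p = 0.0290). Psmd13 was the 1 member rhythmic in both ages, as were 7.56% of tested genes. In aged it was at 15.2, 16.5, 14.6 and 15.3 RPKM at ZT2 and at 19.9, 18.8, 18.7 and 19.1 RPKM at ZT10. In young it was at 16.4, 15.4, 16.6 and 17.5 RPKM at ZT2 and at 18.5, 19.5, 20.5 and 18.9 RPKM at ZT6. These values went into the rhythm tests and are no further test of a rhythm. Part of the Psmd13 transcript overlaps another gene on the opposite strand, as given above. Blood markers moved with time in aged, 5 of 5 being rhythmic, and their part in these results was not tested.

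The aged count moved with single libraries. Without aged ZT6 replicate 3 there were 9 rhythmic members, and without both that stand apart also 9 (19.6%), where 27.3% of tested genes were. These were Psmd13, Psmd3, Psme3, Psmd1, Psmg3, Psmg2, Psmf1, Psmb10 and Psma4, with peaks from ZT7.00 to ZT12.0. Both ages then shared 5 members, Psma4, Psmd3, Psmd13, Psmf1 and Psmg2, where 19.4% of tested genes were rhythmic in both. Leaving out aged ZT6 replicate 2 or 4, ZT18 replicate 2, or ZT22 replicate 1 or 4 gave 1 member in each case, and leaving out aged ZT2 replicate 2, ZT18 replicate 1 or 3, or ZT22 replicate 2 gave 3. Shares of all tested genes in the fits that left out 1 library are not given here. Whether these counts moved more than those of all genes cannot be told. With RPE and lens markers as covariates the count was 1 over all libraries (2.09% of tested genes) and 4 without both (10%). Median-ratio scaling gave 1, the ATPase Psmc5 (12.3%), quantile normalization 1, Psmd13 (10.7%), and limma voom on recovered reads 2 (14.3%).

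No member passed the test of a different rhythm. The test of the age by cosine and sine terms called 0 members, where 0.00653% of tested genes were called (1 gene), and the lowest adjusted p was 0.606 in limma. At an unadjusted p under 0.05 there were 7 members (15.2%, against 7.75% of tested genes), namely Psmd2, Psmd13, Psma4, Psmd11, Psmc2, Psme2 and Psmb3, and 5 without both libraries that stand apart. The amplitude was larger in young than in aged for 29 of the 46, with medians of 0.11 in young and 0.089 in aged in log2, and over all tested genes the medians were 0.13 and 0.15. Without both libraries it was larger in young for 27. The larger count of rhythmic members in young was thus not matched by a call in the test of the difference itself.

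**Figure D5:**
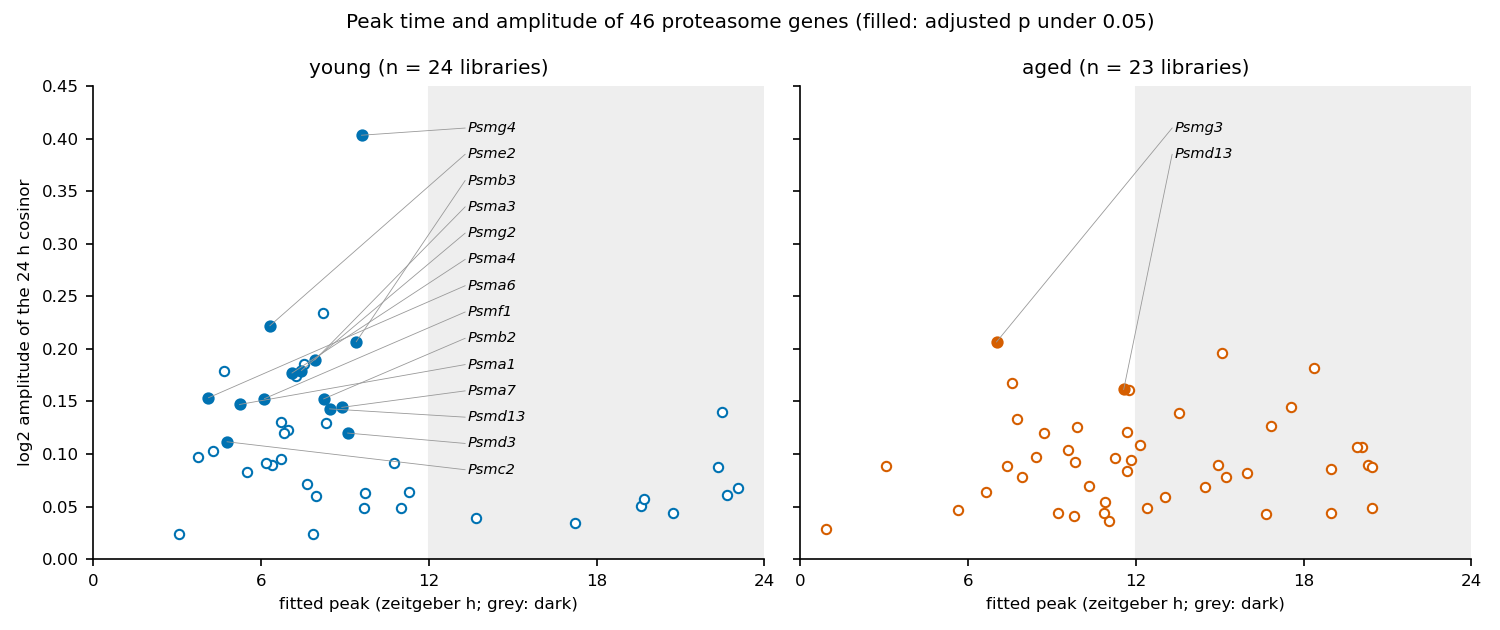
Fitted peak in zeitgeber h against the log2 amplitude of a 24 h cosine wave for each of the 46 genes, in young (left, n = 24) and aged (right, n = 23) libraries, with grey for the dark. Filled, named points passed an adjusted p under 0.05: 14 in young, all peaking in the light, with Psmg4 highest, and 2 in aged.

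The members varied together between libraries of the same age and time, and the core genes did so more than those of the regulatory particle. After subtracting each group's mean, the mean pairwise correlation across 47 libraries was 0.20 over the 46 genes and 0.085 over all tested genes. It was 0.53 among the 14 constitutive core genes and 0.14 among the 17 of the regulatory particle, and without both libraries that stand apart 0.63 and 0.29. The members with the lowest mean correlation with the others were Psmd1 at -0.27 and Psme4 at -0.22 with all libraries. Without both, Psme4 was lowest at -0.21 and Psma1 highest at 0.44. These points share library depth and scaling and are given as a description.

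Psmb8, an inducible catalytic subunit outside the set, was low in both ages and higher in aged retinas. It had lowest, median and highest levels of 0.277, 0.433 and 0.677 RPKM in young and 0.300, 0.687 and 1.27 RPKM in aged. The ages overlapped, but the aged median was above every young library, and the difference was 0.32 ± 0.064 in log2 (adjusted p = 0.000837 by limma). Psmb8 had 42 to 170 reads per library. Its young median lay under the 0.5 RPKM of the filter, so it entered the test mostly through aged libraries. The filter thus favored the direction seen, and the p-value is no independent support for a rise. Psmb9, another inducible catalytic subunit, was too low for the test, at 0.294 ± 0.0963 and 0.355 ± 0.170 RPKM (SD, n = 24 and 23). Microglia markers, which mark the resident immune cells of the retina, summed to between 0.375 and 21.8 RPKM in young and between 7.05 and 34.1 RPKM in aged. Of their 6 genes 3 rose without both libraries that stand apart, and their part in the Psmb8 result was not tested.

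In the other lists of the pathway limma called 0 for age with all libraries. At an unadjusted p under 0.05 there were 1 of 10 partners, 2 of 10 regulators, 1 of 10 genes of ubiquitin and its activation and 2 of 11 substrate delivery genes, against 15.7% of all tested genes. The core assembly factor Pomp was at 15.9 ± 3.41 RPKM in young and 16 ± 1.73 RPKM in aged (difference 0.016 ± 0.061, adjusted p = 0.949 by limma). Without both libraries that stand apart, 16.5% of all tested genes were called for age. In that fit 1 of 10 partners rose, the proteasomal deubiquitinase Uchl5 (0.12 ± 0.033). Nfe2l1, the factor that raises proteasome genes when the protease is inhibited, had a difference of 0.0044 ± 0.10 (adjusted p = 0.992). Without both, Bach1, a repressor at antioxidant response elements, fell by 0.24 ± 0.036 (adjusted p = 3.81e-06 by limma). Without both, the polyubiquitin gene Ubb (0.16 ± 0.038) and the conjugating enzyme Ube2d3 (0.073 ± 0.021) rose, and the ligase Ube3a fell by 0.12. No substrate delivery gene was called in either fit.

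Rhythms in young were found in 2 of 10 partners, 4 of 10 regulators and 4 of 11 delivery genes, and in aged in 1, 3 and 4, where 19.7% and 14.4% of all tested genes were rhythmic. The young ones were Adrm1 and Sem1, then Ddi2, Ngly1, Nfyc and Hsf1, then Ufd1, Nsfl1c, Faf1 and again Ddi2. The aged ones were Akirin2, then Nfe2l2, Ddi2 and Ngly1, and Rad23b, Ubqln4, Vcp and again Ddi2, which stands in both lists. Without both libraries that stand apart the counts were 3, 5 and 6 in young and 2, 4 and 7 in aged. There 34% and 27.3% of tested genes were rhythmic. Adrm1, Nfyc, Ufd1, Nsfl1c and Faf1 were then called in aged too, and Txnl1, Nfe2l2, Rad23b and Ubqln4 were added in young. The ubiquitin receptor of the regulatory particle Adrm1 had an amplitude of 0.17 ± 0.029 and a peak at ZT8.15 in young, and Sem1, a small regulatory subunit, 0.27 ± 0.071 at ZT8.29, both within the span of the member peaks. Ngly1 and Ddi2, the enzymes that process Nfe2l1, were rhythmic in both ages at opposite times from each other. Ngly1 peaked at ZT6.12 in young and ZT7.69 in aged, and Ddi2 at ZT18.6 and ZT19.0. Nfe2l1 itself was not called in either age (adjusted p = 0.846 and 0.424 by limma).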

How the data were processed

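Polyadenylated RNA of retinas was sequenced after random priming, per the labels' protocols. HISAT2 2.2.1, Subread 2.0.6 and build GRCm39 stand in the submitters' processing notes, with no role given. The authors deposited RPKM values, 1 column per library; 1 column could not be matched to a sample and was left out. The annotation release is not given in the sources used here. Per the series' design text the authors used edgeR, MetaCycle and CircaCompare. RPKM values are not counts, so limma 3.58.1 in R 4.3.3 and a cosine fit were used here.

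Symbols came from GENCODE M21, which served for names, biotypes, exon lengths and shared sequence only, since it belongs to an earlier build. The 15321 genes that reached 0.5 RPKM in 12 or more libraries were tested on log2(RPKM + 0.5) with eBayes with trend and Benjamini-Hochberg adjustment over all of them. On this scale changes of low genes come out smaller. Age was tested with time as a factor, at each time from 12 group means with an interaction F test, and rhythm by F tests of 24 h cosine and sine terms, in each age and as age by cosine and sine terms. A gene was called at an adjusted p under 0.05. Rhythmic genes were taken to peak in the light between ZT0 and ZT12.

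Values were whole multiples of 1 read within 0.01 for 37321 of 37323 genes above 0, so reads were recovered for limma voom. For the genes not whole at the M21 length the length was chosen to make them so. Replicates differed by more than sampling noise (chi-square per gene 7.41 to 746.75 over 69 pairs), and 46 genes share these libraries, so they are not replicates of each other. The scripts were tested on simulated data.

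The members and lists were chosen with earlier results of these data known. Named genes were the catalytic and inducible members, the extremes of each role, called members (up to 12, or the 3 smallest p-values) and called genes of related lists; rhythms of the ubiquitin list are not reported here. All 14 members rhythmic in young were named, beyond that rule. Alternatives changed the pseudocount, filter, scaling, block, covariates and time terms and left out libraries. Those that left out both libraries that stand apart together with a further change were chosen after seeing the data.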

Additional observations from a re-analysis of the deposited data

Results flagged for a closer look

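The screen took the mean member level and Psmb5, Psmb6, Psmb7, Psmb10, Psme1 and Psme2 in each group of 4 libraries, 77 sets in all. In 7 sets a value lay far from the other 3, where chance gives about 1 in 20 for a single set. The sets share libraries, so their count cannot be set against that rate. Of the 7 values, 3 were in young ZT10 replicate 4. There the chymotrypsin-like subunit Psmb5 was at 77.9 RPKM against 50.5, 51.8 and 53.9 RPKM in the other replicates. The caspase-like subunit Psmb6 was at 122 RPKM there against 48.4, 53.7 and 56.6 RPKM. Psme2, of the inducible activator, was at 13.0 RPKM against 7.57, 7.61 and 8.27 RPKM. These high values lie in 1 of the libraries that stand apart from the rest.

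The other 4 values were low. Psmb7, the trypsin-like subunit, was at 13.6 RPKM in aged ZT6 replicate 3, the other library that stands apart, against 18.3, 18.6 and 18.8 RPKM. Psme2 was at 6.09 RPKM in young ZT18 replicate 3 against 7.44, 7.57 and 7.71 RPKM. The alternative catalytic subunit Psmb10 was at 5.75 RPKM in aged ZT10 replicate 3 against 7.33, 7.47 and 7.48 RPKM. It was at 6.04 RPKM in aged ZT14 replicate 1 against 7.26, 7.32 and 7.39 RPKM.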

How the results depend on the processing

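With all libraries, 1 member was called for age, 14 for rhythm in young and 2 in aged. Median-ratio scaling gave 3, 2 and 1, quantile normalization 4, 11 and 1, and RPE and lens covariates 1, 9 and 1. Time as a factor in place of the cosine gave 10 in young and 0 in aged by limma. Without both libraries that stand apart the counts were 12 for age (16.5% of tested genes), 1 at ZT14 (0.914%) and 9 in aged (27.3%). Together with median-ratio scaling or quantile normalization the age count was 14 in each case, with RPE and lens covariates 8 (and 4 rhythmic in aged), and with limma voom 12 (1 at ZT14 and 9 in aged). Leaving out 1 library at a time gave 1 to 7 members for age, 0 to 3 at ZT6, 13 to 18 in young and 1 to 9 in aged, and 0 at the other times. The median log2 difference of the members ranged from 0.024 to 0.042 over those fits. Most shares of all tested genes are not given for fits with a further change, 1 library left out or time as a factor. Counts without a share cannot be set against all genes.

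Small differences changed sign. With RPE and lens covariates Psmb7 was at -0.0024 and Psmb5 at -0.00045 in log2. Psme2 was at 0.053 without both libraries, 0.074 with median-ratio scaling as well, 0.078 with quantile normalization, 0.057 with the covariates, 0.052 with the block and 0.050 with limma voom. Psme1 was at -0.0077 without both and with the covariates. Leaving out 1 library at a time gave -0.0012 (without young ZT10 replicate 4) to 0.11 for Psme1, -0.051 to 0.025 (without aged ZT6 replicate 3) for Psme2 and -0.00060 (without aged ZT6 replicate 4) to 0.061 for Psmb5. The cause of these shifts was not tested.

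The labels name no pairing of the samples by replicate number. Same-numbered libraries of both ages correlated at -0.486 to 0.428 (median 0.00894) over 23 pairs, 10 of them over 0.1. Differently numbered libraries were not compared, so these values cannot decide whether the numbers pair the samples. With the replicate block the counts were 1 for age, 15 in young and 2 in aged, and without both libraries 13 for age, 2 at ZT14 and 8 in aged. Shares of all tested genes in these block fits are not given here. Read depth differed by gene: Psma6 had 1676 to 4289 reads per library, while Psme2b had 74 to 279 and Psmg3 134 to 509. Psmb8, outside the set, had 42 to 170. The part of depth in the calls was not tested.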
